A study of Mus musculus with 2 samples.

Results

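The 40 genes described here encode the enzymes and transporters of glycolysis and lactate export, the enzymes of the pentose phosphate pathway, and HIF1α with a few of its regulators and targets. They were taken by name from the raw count table, whose 54532 Ensembl identifiers were given symbols from GENCODE M21 (mm10). The rule applied no cutoff on measured values, but the list was chosen with earlier results of these data known. Of the identifiers, 14489 had at least 10 counts over both libraries and are called tested genes, and all 40 members were among them. They were sequenced in M1-like bone marrow derived macrophages (BMDMs) of FRβ KO mice and of WT mice, to learn what loss of folate receptor β, encoded by *Folr2*, does in these cells. Both groups were male C57BL/6 mice. The FRβ KO mice carry an insertion in *Folr2* that was made on an SWV background and crossed onto C57BL/6, while WT mice were bought at 6 to 8 weeks of age, and the age at marrow collection is not given. Marrow of both genotypes was grown for 7 days with 20 ng/mL M-CSF in regular RPMI and then given IFNγ (20 ng/mL) and LPS (1 ng/mL) for 24 hours, so neither group is an unstimulated control. The RNA of 3 mice was pooled into 1 library per genotype. No spread between mice could be measured and no p-value is given. The difference in genotype cannot be told apart from differences between the pools, in origin of the mice or in passenger genome.

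Glycolysis splits glucose into pyruvate and yields ATP without oxygen, and macrophages exposed to LPS and IFNγ rely on it heavily, reducing pyruvate to lactate that leaves the cell. The pentose phosphate pathway branches off at glucose 6-phosphate and supplies NADPH, which the oxidative burst and nitric oxide synthesis use, and ribose for nucleotides. HIF1α is a transcription factor that is degraded after prolyl hydroxylation, accumulates in hypoxia or after LPS, and induces many genes of glycolysis.

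Total counts were 19742619 in FRβ KO, where 19090 genes were detected, and 18871271 in WT, where 18945 were. Mitochondrial transcripts took 1.69% of counts in FRβ KO and 1.62% in WT. *Folr2* itself had 2 counts in FRβ KO and 0 in WT, both under the floor of 3 counts, so it gives no ratio and does not check the labels. The cells carried the markers of their type, with all 7 macrophage and all 7 M1-like markers tested, and the summed macrophage markers stood at 16934 CPM (counts per 1000000, on library sizes scaled by TMM) in FRβ KO and 19470 CPM in WT. *Lyz2* alone took 13798 CPM of that sum in FRβ KO and 16348 CPM in WT, a gap about as large as that of the whole sum. Summed M1-like markers stood at 12013 CPM in FRβ KO and 13700 CPM in WT. Most of that gap was *Gbp2*, at 7400 CPM in FRβ KO and 8682 CPM in WT. Markers of T, B, dendritic, mast, erythroid and fibroblast cells summed to at most 10.6 CPM per type in FRβ KO and 11.8 CPM in WT, with *Cd3d*, *Cd3g*, *Cd8a*, *Cd79b* and *Ms4a1* at 0 in both libraries. Neutrophil markers summed to 21 CPM in FRβ KO and 35.8 CPM in WT, nearly all *S100a8*. The part of these markers in the results below was not tested, and fewer cells of a type and less RNA per cell cannot be told apart in bulk RNA.

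The hypoxia response element to which HIF1 binds has the core ACGTG or GCGTG. RefSeq promoters (GRCm38.p6, 250 bases before to 50 after the annotated start) were matched for 39 of the 40 members, all but *Slc2a3*, and searched for this core on both strands. A CACGTG, the canonical E-box, holds the core on each strand and counts as 2 matches. At least 1 match stood in 35 of 39 members (89.7%), against 46.7% of all 27025 genes of the promoter table and 70.5% of the 4667 with at least 1000 counts. Genes can have several promoters, and counted singly 77.6% of the members' promoters held a match, against 43.8% of all and 64.1% of those of genes with at least 1000 counts. The 4 members without a match were *Gpi1*, *Eno2*, *Tpi1* and *Rpe*. GC content was 59.6% in the members, 53.8% in all genes and 61.5% in genes with at least 1000 counts. A CACGTG stood in 12.1% of the members' promoters in 7.15% of all and in 10.9% of those of genes with at least 1000 counts. A match describes letters and not a site in use.

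Promoters are shown for 3 members that were lower in FRβ KO, namely *Gapdh*, *Ldha* and *Pgk1*, and for the pair that were higher there by over 25%, *Slc2a6* and *Ldhb*, so that the letters can be compared across both directions. Each is the reference sequence, 5′ to 3′ on the strand of the gene, with matches to the core or its reverse complement in capitals. They lie at chr6:125165724-125166023 (minus strand), chr7:46845554-46845853 (plus), chrX:106186850-106187149 (plus), chr2:27027949-27028248 (minus) and chr6:142507908-142508207 (minus).
Gapdh: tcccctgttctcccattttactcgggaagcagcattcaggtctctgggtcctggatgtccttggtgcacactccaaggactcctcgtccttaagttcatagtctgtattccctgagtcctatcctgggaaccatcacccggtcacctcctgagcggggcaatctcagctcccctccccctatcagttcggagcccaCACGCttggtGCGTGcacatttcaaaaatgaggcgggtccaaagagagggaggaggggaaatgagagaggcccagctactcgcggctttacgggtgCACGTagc
Ldha: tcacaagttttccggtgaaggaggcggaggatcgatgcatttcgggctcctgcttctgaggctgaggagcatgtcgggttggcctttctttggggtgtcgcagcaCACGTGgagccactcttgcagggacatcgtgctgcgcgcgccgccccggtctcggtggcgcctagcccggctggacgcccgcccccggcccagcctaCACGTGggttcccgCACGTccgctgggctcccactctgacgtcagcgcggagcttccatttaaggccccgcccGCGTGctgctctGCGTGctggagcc
Pgk1: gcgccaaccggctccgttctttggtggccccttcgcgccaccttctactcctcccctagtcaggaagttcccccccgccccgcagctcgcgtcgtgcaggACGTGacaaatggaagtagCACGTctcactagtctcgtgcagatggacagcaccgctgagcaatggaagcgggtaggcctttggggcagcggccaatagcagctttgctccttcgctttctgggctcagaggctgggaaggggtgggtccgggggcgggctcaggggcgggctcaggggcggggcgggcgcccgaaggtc
Slc2a6: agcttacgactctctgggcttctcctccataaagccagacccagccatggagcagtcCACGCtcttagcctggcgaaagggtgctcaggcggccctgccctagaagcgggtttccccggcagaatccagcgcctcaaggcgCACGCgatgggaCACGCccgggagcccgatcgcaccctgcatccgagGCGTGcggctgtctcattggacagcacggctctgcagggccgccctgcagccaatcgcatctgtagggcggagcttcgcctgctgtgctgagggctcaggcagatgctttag
Ldhb: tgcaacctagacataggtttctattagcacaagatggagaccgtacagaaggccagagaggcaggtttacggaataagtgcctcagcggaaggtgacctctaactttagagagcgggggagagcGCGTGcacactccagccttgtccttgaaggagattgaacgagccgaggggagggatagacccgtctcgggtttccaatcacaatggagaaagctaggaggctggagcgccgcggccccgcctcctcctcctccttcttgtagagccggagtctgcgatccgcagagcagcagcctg
In the promoters shown, *Gapdh* had 3 matches, *Ldha* 7 including a pair of CACGTG, *Pgk1* 2, *Slc2a6* 4 and *Ldhb* 1. *Ldha* has another promoter, not shown, at chr7:46846832-46847131 (plus), with 2 matches and no CACGTG. Matches thus stood in promoters of genes on either side of 1. Among the members whose interval lay below 1, 24 of 26 (92.3%) had a match, and among the others 11 of 13 (84.6%).

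Most of the 40 genes were lower in the FRβ KO library by a small margin, *Gapdh* was lower by far more, and 3 were higher. The ratio of TMM-scaled counts, FRβ KO over WT, was taken for each gene with its exact 95% interval, which covers counting error only. No molecular identifiers are described for the reads, so even that error may be understated. The whole interval lay below 1 for 26 members (65.0%), against 16.6% of all tested genes, and above 1 for 3 (7.50%), against 15.0%. It held 1 for the other 11.

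Abundant genes reach such an interval with smaller differences, so the members were also set beside genes of like counts. Of the 32 members with at least 1000 counts, 24 (75%) had an interval below 1 and 2 (6.25%) above 1, against 23.4% and 21.8% of the 5846 tested genes with that many counts. A moderate difference was taken as a ratio over 25% above 1, or under 0.8 on the lower side, with the interval clear of 1. Of the 40 members 2 (5%) passed it on the higher side, against 6.32% of tested genes, and 7 (17.5%) on the lower, against 7.24%. Among those with at least 1000 counts 1 passed it on the higher side and 5 on the lower (15.6%), where the shares of tested genes were 2.70% and 3.27%. A whole interval beyond 2-fold was seen for 0 members on the higher side, where 0.311% of tested genes had it, and for *Gapdh* alone on the lower side, where 0.407% had it.

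The median ratio was 0.932 over the 40 members, 0.940 over the 39 without *Gapdh* and 0.998 over all tested genes. Among the 18 members with at least 10000 counts the median ratio was 0.907, against 0.977 for the 597 genes of that abundance, and 15 of the 18 lay under it. Among the 14 with 1000 to 10000 counts it was 0.930, against 1.00 for 5249 genes, and 9 of the 14 lay under it. The 8 members with fewer counts had a median ratio of 1.07, against 0.994 for all tested genes of that abundance. Of these 8, 1 had an interval above 1 and 2 below, where 899 and 1035 of the 8643 tested genes did. Without *Gapdh*, ratios ran between 0.717 and 1.41, and the members summed to 17493 CPM in FRβ KO and 19533 CPM in WT, a ratio of 0.896 (0.891 to 0.900).

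**Figure D1:**
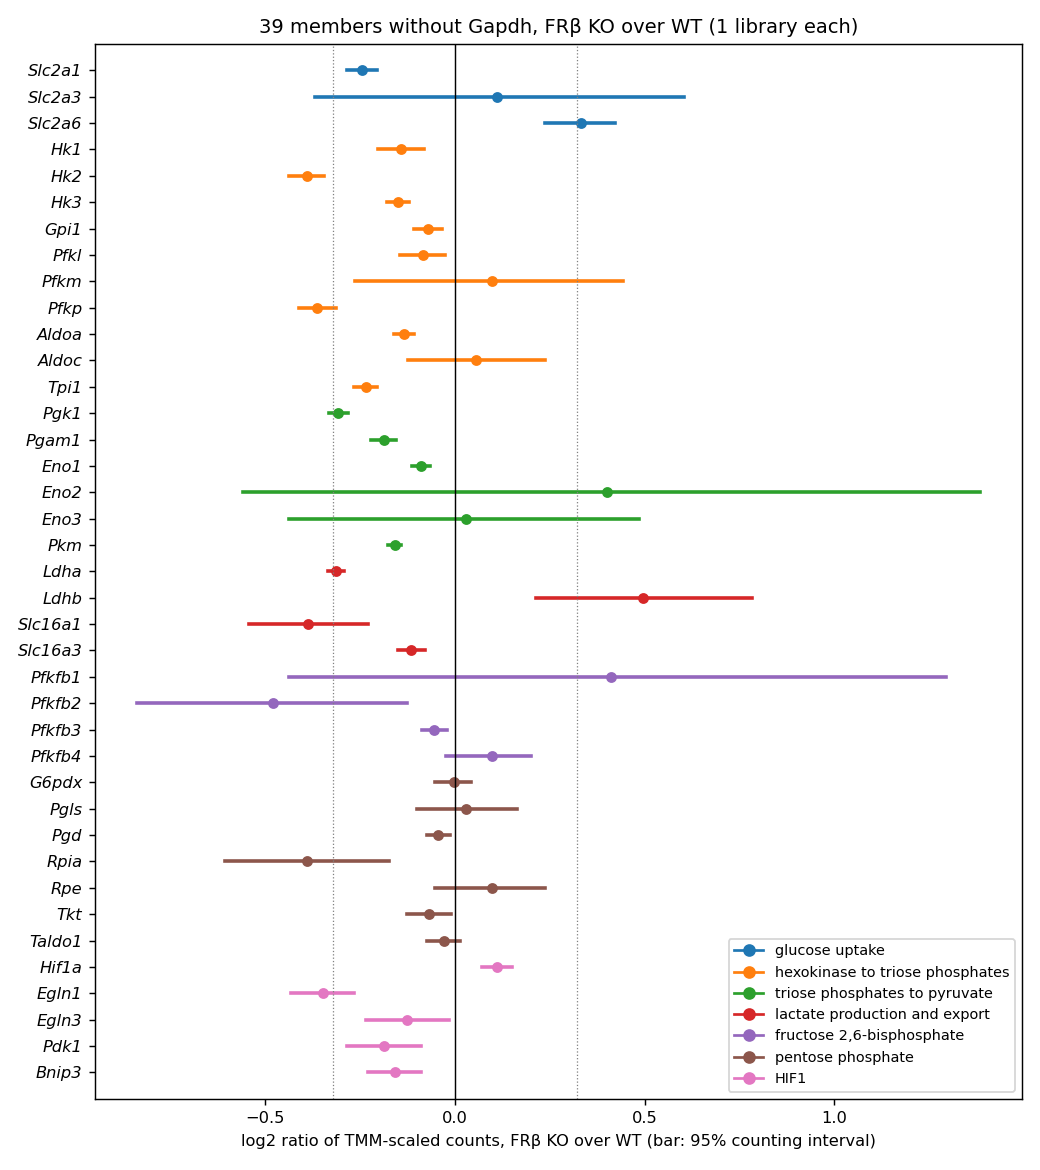
Log2 ratio of TMM-scaled counts, FRβ KO over WT, for the 39 members without *Gapdh*, in pathway order and coloured by role. Points are the ratios of 1 library per genotype, bars the 95% counting intervals, and dotted lines the limits of a moderate difference (ratios of 0.8 and its inverse). 25 of the 39 intervals lie whole to the left of 0 and 3 to the right.

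**Figure D2:**
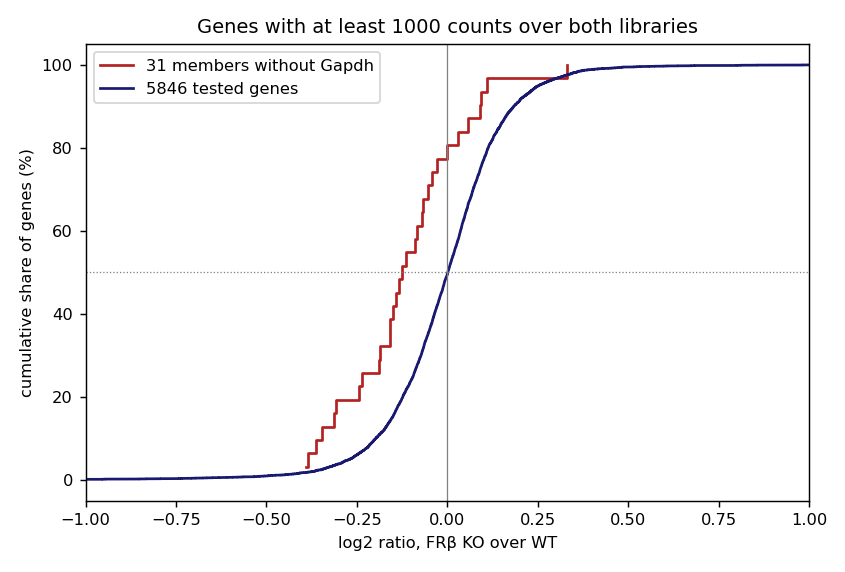
Cumulative share of genes (%) by log2 ratio, FRβ KO over WT, among genes with at least 1000 counts, for the members without *Gapdh* and for the 5846 tested genes. The members' curve lies to the left over most of its range and meets the other near *Slc2a6* at its right end.

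Glucose entry divided between its transporters. *Slc2a1*, which encodes GLUT1, the main glucose carrier of activated macrophages, had 10263 counts in FRβ KO and 11353 in WT, a ratio of 0.844 (0.822 to 0.867). *Slc2a6*, encoding GLUT6, a transporter of lysosomal membranes that inflammatory stimuli induce, had 2210 counts in FRβ KO and 1641 in WT, a ratio of 1.26 (1.18 to 1.34). Their ratios differed by 1.49 times (1.39 to 1.60 by counting error), and *Slc2a6* made up 17.6% of the counts of the 3 transporters in FRβ KO (16.9% to 18.3%) and 12.6% in WT (12.0% to 13.1%). *Slc2a3*, encoding the neuronal type GLUT3, was scarce, with 80 counts in FRβ KO and 69 in WT, and its interval held 1 (0.775 to 1.52). It shares short stretches with 59 other genes, which took 99.9% of the summed counts in each library. Summed with them the ratio was 0.983 (0.973 to 0.994), which is in effect theirs and cannot show that of *Slc2a3*.

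Hexokinases trap glucose in the cell by phosphorylation. *Hk2*, the isozyme that growth and inflammatory signals induce, had 7040 counts in FRβ KO and 8619 in WT, a ratio of 0.763 (0.739 to 0.787). *Hk1* (4343 counts in FRβ KO, 4474 in WT) had a ratio of 0.906 (0.869 to 0.945), and *Hk3*, the isozyme of myeloid cells, 0.901 (0.884 to 0.919). All 3 were lower, *Hk2* the most, and its share of hexokinase counts was 22.6% in FRβ KO (22.2% to 23.1%) and 25.7% in WT (25.2% to 26.2%). *Hk3* had 19734 counts in FRβ KO and 20448 in WT, the largest part of the family in each.

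Phosphofructokinase, the committed step, differed by subunit. The platelet type *Pfkp* had 6054 counts in FRβ KO and 7265 in WT, a ratio of 0.778 (0.752 to 0.805). The liver type *Pfkl* had 4555 counts in FRβ KO and 4511 in WT, a ratio of 0.943 (0.905 to 0.983). *Pfkp* was thus lower relative to *Pfkl* by a ratio of 0.825 (0.782 to 0.871), and it held 56.3% of the family's counts in FRβ KO (55.4% to 57.2%) and 61.0% in WT (60.2% to 61.9%). Per kb of exon *Pfkl* was the larger of the pair in both libraries, at 57.9% of the family in FRβ KO and 53.8% in WT. The length is the union of annotated exons, 13401 bp for *Pfkp* and 6675 bp for *Pfkl*, so this order rests on that length. The muscle type *Pfkm* had 145 counts in FRβ KO and 127 in WT, with an interval that held 1 (0.834 to 1.36), and it shares sequence on the other strand with *Senp1*, which had more counts.

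Between these steps, glucose phosphate isomerase (*Gpi1*) had 11846 counts in FRβ KO and 11611 in WT, a ratio of 0.953 (0.929 to 0.977). Aldolase A (*Aldoa*), which cleaves the hexose bisphosphate, had 21729 counts in FRβ KO and 22250 in WT, a ratio of 0.912 (0.895 to 0.929). Triose phosphate isomerase (*Tpi1*), which interconverts the products, had 17400 counts in FRβ KO and 19121 in WT, a ratio of 0.850 (0.832 to 0.867). The difference was thus larger at the isomerase of the trioses than at that of the hexoses. *Aldoc*, the brain type aldolase, had 538 counts in FRβ KO and 483 in WT and an interval that held 1 (0.918 to 1.18).

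*Gapdh* (ENSMUSG00000057666, chr6:125161715-125166467, minus strand), the dehydrogenase that oxidises glyceraldehyde 3-phosphate and is often used as a reference gene, had 507 counts in FRβ KO and 5852 in WT. It was 12.4-fold lower in FRβ KO (11.3 to 13.6), at 25.4 CPM in FRβ KO and 314 CPM in WT. Its neighbours in the pathway did not share that size. Per kb of exon, *Tpi1* stood at 51.5 times *Gapdh* in FRβ KO and 4.91 times in WT, and *Pgk1*, the kinase of the next step, at 86.9 times in FRβ KO and 8.70 times in WT. *Gapdh* was thus well under its neighbours in WT too.

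*Gapdh* has many near-identical copies in the genome, mostly processed pseudogenes, and the sources used here do not give how the authors counted reads that match several places. With an identity of 95% upward along 150 bp or more, 147 annotated genes matched it, 86 of them detected, with 3522 counts in FRβ KO and 2899 in WT (ratio 1.13, 1.08 to 1.19). Matches over at least 500 bp, a limit chosen after seeing the data, left 86 genes, 71 of them detected, with 1907 counts in FRβ KO and 1445 in WT (ratio 1.23, 1.15 to 1.32). On the CPM scale these 86 stood higher in FRβ KO by 18.0, while *Gapdh* itself differed by -288. The most counted, *Gm7336*, matched *Gapdh* at 99.8% over 1232 bp and had 1034 counts in FRβ KO and 766 in WT. The sum of *Gapdh* and the 86 had a ratio of 0.309 (0.295 to 0.324), and with the 147 it was 0.430 (0.414 to 0.446). The 147 include *Peli2*, a separate protein-coding gene that matches over 199 bp (838 counts in FRβ KO, 780 in WT). They also include the pseudogene *Gm5345*, which matches over 193 bp (757 in FRβ KO, 654 in WT). The sum with the 147 is therefore not one of *Gapdh* copies alone. The copies took 79.0% of that first sum in FRβ KO and 19.8% in WT. In WT most counts in the sum were therefore those of *Gapdh*, and in FRβ KO those of the copies.

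Around *Gapdh*, 44 tested genes lay within 500 kb, with a median ratio of 1.03, and 0 of them had a whole interval past 2-fold in either direction. *Iffo1*, which overlaps the end of *Gapdh* on the other strand, had 441 counts in FRβ KO and 368 in WT, a ratio of 1.12 (0.972 to 1.29). Of 12 other reference genes, 7 had an interval below 1 and 0 above. Of all tested genes 16.6% and 15.0% did, and of those with at least 1000 counts 23.4% and 21.8%. The reference genes' ratios ran between 0.770 for *Ppia*, encoding cyclophilin A (3838 counts in FRβ KO, 4655 in WT, 0.737 to 0.804), and 1.11 for *Tbp*, the TATA-binding protein (479 counts in FRβ KO, 404 in WT, 0.968 to 1.27). Their median of 0.937 was close to the 0.940 of the 39 members without *Gapdh*, so a small lowering was not particular to the members. *Ppia* also has matches elsewhere, and its ratio was 0.952 (0.926 to 0.978) summed with those over 150 bp and 0.772 with those over 500 bp. Of the 150 bp matches' counts, 6577 in FRβ KO and 5562 in WT, most were those of *Gclm* (5789 in FRβ KO, 5158 in WT). *Gclm* is a separate protein-coding gene that matches over 287 bp, so the first sum is not one of *Ppia* copies alone. The size of the *Gapdh* difference was not seen in any of the 12.

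**Figure D3:**
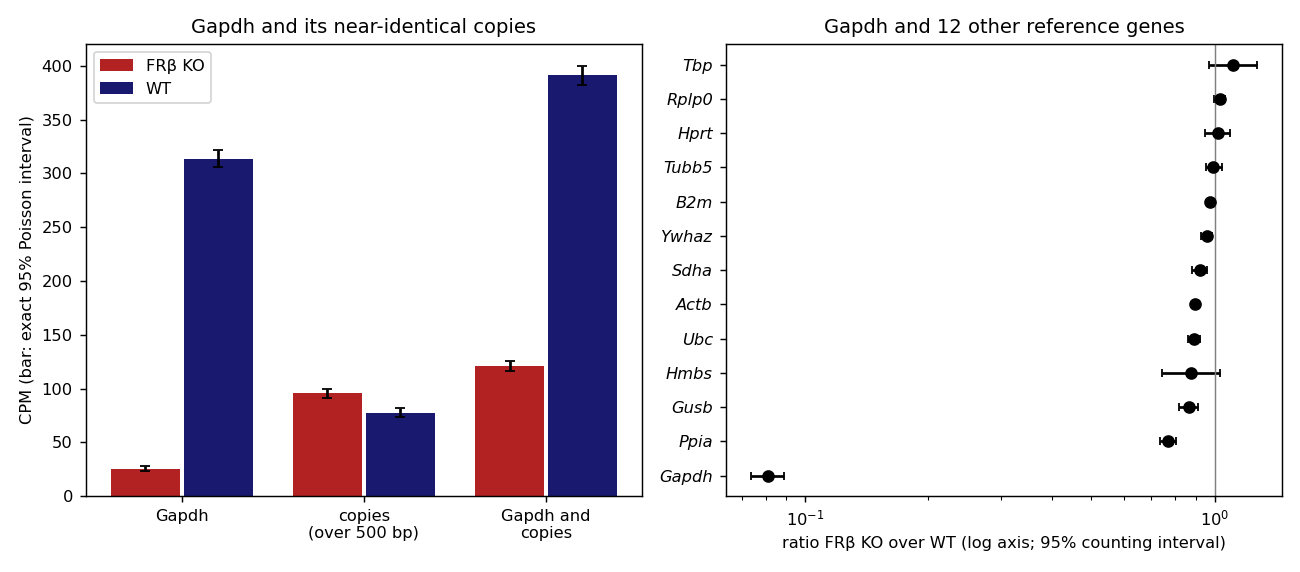
Left, CPM of *Gapdh*, of the 86 genes that match it over at least 500 bp and of their sum, in FRβ KO and WT, with exact 95% Poisson intervals. Right, ratio FRβ KO over WT with its 95% counting interval on a log axis for *Gapdh* and 12 other reference genes, which lie between 0.770 and 1.11 while *Gapdh* lies at 0.0809.

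After the triose step, the abundant enzymes were all somewhat lower in FRβ KO. Phosphoglycerate kinase (*Pgk1*), which makes the first ATP of the pathway, had 23926 counts in FRβ KO and 27636 in WT, a ratio of 0.808 (0.795 to 0.823). Phosphoglycerate mutase (*Pgam1*) had 14398 counts in FRβ KO and 15314 in WT, a ratio of 0.878 (0.858 to 0.898). Among these *Pgk1* was the lowest. Enolase 1 (*Eno1*) had 29929 counts in FRβ KO and 29725 in WT, a ratio of 0.940 (0.925 to 0.955). Pyruvate kinase (*Pkm*), which makes the second ATP, was the most counted member, with 53493 counts in FRβ KO and 55708 in WT and a ratio of 0.897 (0.886 to 0.907). *Gm49759*, a provisional transcript on the same strand inside *Pkm*, had 2213 counts in FRβ KO and 2365 in WT. The neuronal and muscle enolases were scarce, *Eno2* with 24 counts in FRβ KO and 17 in WT and *Eno3* with 85 in FRβ KO and 78 in WT, and both intervals held 1 (0.679 to 2.61 for *Eno2*, 0.739 to 1.40 for *Eno3*).

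Of the lactate genes, *Ldha* and both exporters were lower in FRβ KO and *Ldhb* was higher. *Ldha*, whose subunit favours reduction of pyruvate to lactate, had 32551 counts in FRβ KO and 37767 in WT, a ratio of 0.805 (0.793 to 0.817). *Ldhb*, whose subunit favours the reverse reaction, had 255 counts in FRβ KO and 169 in WT, a ratio of 1.41 (1.16 to 1.72), the highest of the 40. *Ldhb* thus stood higher relative to *Ldha* by 1.75 times (1.44 to 2.13), yet it gave only 0.777% of the pair's counts in FRβ KO (0.685% to 0.878%) and 0.445% in WT (0.381% to 0.518%).

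Lactate leaves through monocarboxylate transporters. *Slc16a3*, encoding MCT4, the low-affinity exporter of glycolytic cells, had 12856 counts in FRβ KO and 12996 in WT, a ratio of 0.924 (0.901 to 0.947). *Slc16a1*, encoding the more general carrier MCT1, had 614 counts in FRβ KO and 749 in WT, a ratio of 0.765 (0.687 to 0.853). Both were lower, and *Slc16a1* held 4.56% of the pair's counts in FRβ KO (4.21% to 4.92%) and 5.45% in WT (5.08% to 5.84%).

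Across the 24 genes between glucose uptake and lactate export, 17 had an interval below 1 and 2 above, where 16.6% and 15.0% of all tested genes, and 23.4% and 21.8% of those with at least 1000 counts, did. The 23 without *Gapdh* summed to 13721 CPM in FRβ KO and 15662 CPM in WT, a ratio of 0.876 (0.871 to 0.881). Per kb of exon, *Pkm* (535 CPM in FRβ KO, 597 in WT), *Pgk1* (534 in FRβ KO, 660 in WT) and *Ldha* (492 in FRβ KO, 612 in WT) were the highest in both libraries. *Pkm* and *Pgk1* were level in FRβ KO, while in WT *Pgk1* stood over both others.

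**Figure D4:**
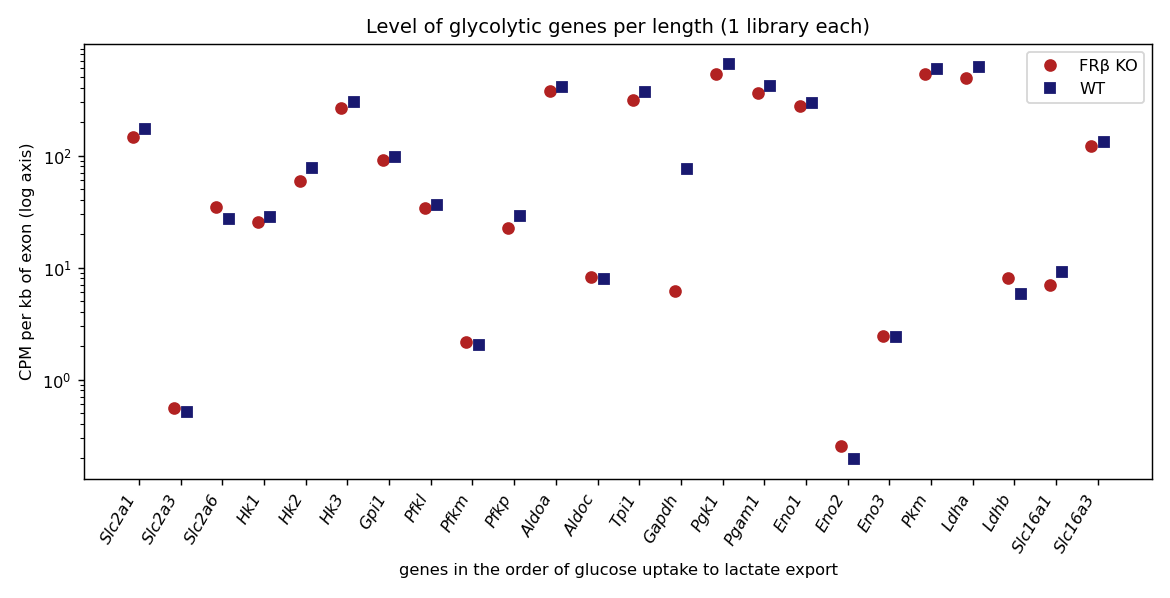
CPM per kb of exon (log axis) of the 24 genes in pathway order, FRβ KO as circles and WT as squares, 1 library each. *Gapdh*, at 6.14 in FRβ KO and 75.9 in WT, is the widest gap, and *Slc2a6* and *Ldhb* have the circle above the square, as have 5 genes whose intervals held 1.

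**Figure D5:**
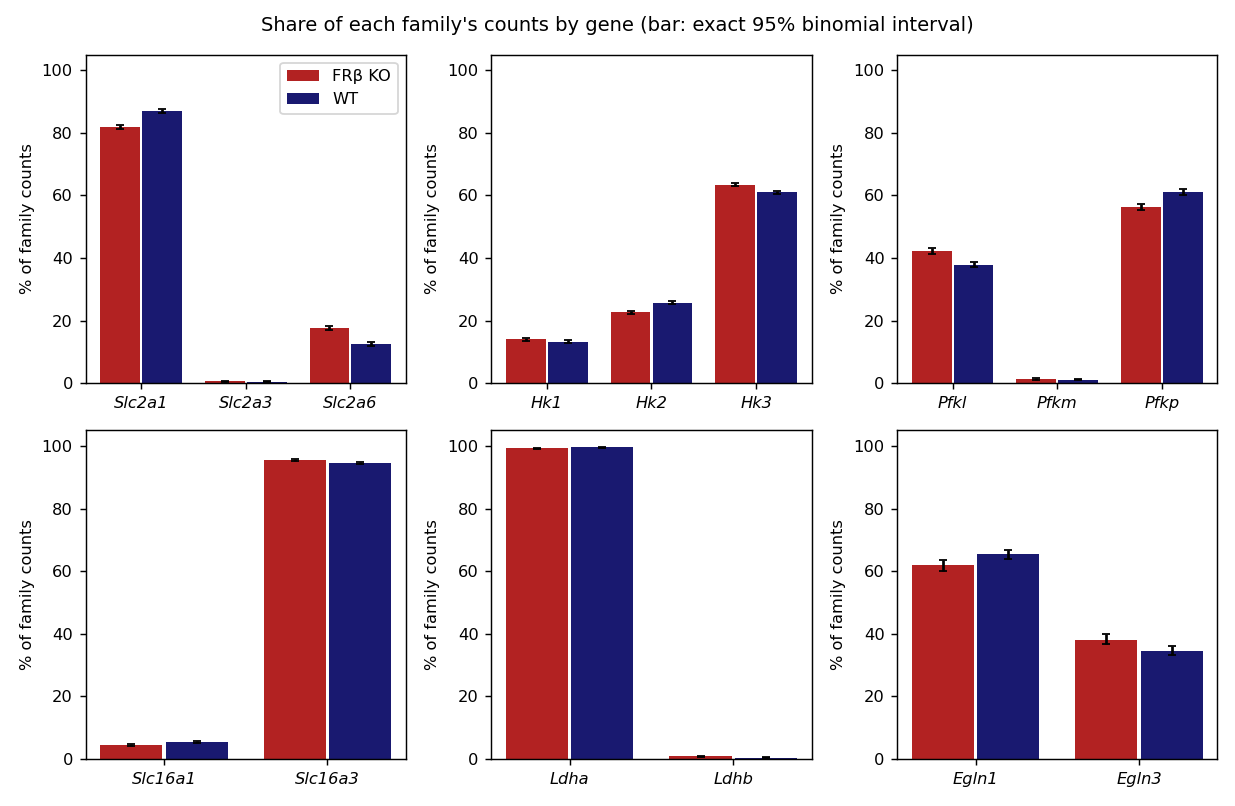
Share of each family's counts (%) taken by each gene in FRβ KO and WT, with exact 95% binomial intervals, for 6 families. *Slc2a6*, *Hk3*, *Pfkl*, *Slc16a3*, *Ldhb* and *Egln3* take a larger share in FRβ KO with intervals that do not overlap those of WT, and *Slc2a3*, *Hk1* and *Pfkm* a slightly larger one with overlapping intervals.

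The bifunctional enzymes that set fructose 2,6-bisphosphate, an activator of phosphofructokinase, differed little in sum, at 823 CPM in FRβ KO and 850 CPM in WT. *Pfkfb3*, the strongly kinase-active and inducible form, had 14950 counts in FRβ KO and 14489 in WT, a ratio of 0.963 (0.942 to 0.986), and made up 90.9% of the family's counts in FRβ KO and 91.4% in WT. *Pfkfb2* had 119 counts in FRβ KO and 155 in WT, a ratio of 0.717 (0.560 to 0.916), the lowest after *Gapdh*. It overlaps *Yod1* on the other strand, which had more counts, 223 in FRβ KO and 176 in WT. *Pfkfb4* (1347 counts in FRβ KO, 1181 in WT) and *Pfkfb1* (30 counts in FRβ KO, 21 in WT) had intervals that held 1, at 0.984 to 1.15 and 0.739 to 2.45.

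The pentose phosphate genes stood near 1, with a summed ratio of 0.976 (0.962 to 0.990) over 7 genes. Of these, 3 had an interval below 1 and 0 above, where 16.6% and 15.0% of all tested genes did. *G6pdx*, the entry enzyme that sets NADPH output, had 6396 counts in FRβ KO and 5982 in WT, a ratio of 0.998 (0.964 to 1.03). It overlaps *Ikbkg* on the other strand, which had 2162 counts in FRβ KO and 1997 in WT. *Pgd*, the other NADPH-forming step, had 16766 counts in FRβ KO and 16132 in WT, a ratio of 0.970 (0.950 to 0.992), and the lactonase *Pgls* between them had 1003 counts in FRβ KO and 917 in WT, with an interval that held 1 (0.933 to 1.12). The oxidative branch thus lay within a few percent of equal.

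In the non-oxidative branch *Rpia*, the ribose 5-phosphate isomerase, stood apart with 323 counts in FRβ KO and 395 in WT, a ratio of 0.764 (0.657 to 0.887). The epimerase *Rpe*, which acts on the same substrate, had 839 counts in FRβ KO and 735 in WT, and its interval held 1 (0.964 to 1.18). Transketolase (*Tkt*) had 4925 counts in FRβ KO and 4821 in WT, a ratio of 0.954 (0.917 to 0.993). Transaldolase (*Taldo1*), with 8523 counts in FRβ KO and 8124 in WT, had an interval that held 1 (0.950 to 1.01). *Rpia* was the only one of the 7 with a ratio under 0.8. It shares stretches of 150 bp or more with 26 other annotated genes, none of 500 bp, and these took 90.0% of the summed counts in FRβ KO and 87.6% in WT. Summed with them its ratio was 0.942 (0.896 to 0.989), no longer under 0.8. That sum holds mostly the other genes, whose own ratio was 0.967 (0.918 to 1.02), so it cannot show the ratio of *Rpia* itself.

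Of the 5 HIF1 genes, *Hif1a* had an interval above 1 and the other 4 had one below. Of all tested genes 15.0% had an interval above 1 and 16.6% below. Of those with at least 1000 counts, 21.8% and 23.4% did. *Hif1a* had 11619 counts in FRβ KO and 10059 in WT, a ratio of 1.08 (1.05 to 1.11). *Egln1*, encoding the prolyl hydroxylase PHD2 that marks HIF1α for degradation, had 2220 counts in FRβ KO and 2638 in WT, a ratio of 0.786 (0.742 to 0.832), and *Egln3*, encoding the hypoxia-induced PHD3, had 1369 counts in FRβ KO and 1394 in WT, a ratio of 0.917 (0.850 to 0.989). The hydroxylases were thus both lower while their substrate's transcript was higher. *Pdk1*, a kinase that inhibits pyruvate dehydrogenase, had 1673 counts in FRβ KO and 1778 in WT, a ratio of 0.879 (0.821 to 0.940). *Bnip3*, a mitophagy receptor and HIF1 target, had 3242 counts in FRβ KO and 3376 in WT, a ratio of 0.897 (0.854 to 0.941).

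Other genes of these pathways were listed by function. Of 26 tested genes of the other glycolytic and pyruvate list (35 listed), 6 had an interval above 1 and 3 below, with a median ratio of 1.00, where 15.0% of all tested genes lay above 1 and 16.6% below. A moderate difference was seen for 5 on the higher side and 0 on the lower, where 6.32% and 7.24% of tested genes had it. They were *Pgm2*, a phosphoglucomutase (698 counts in FRβ KO, 488 in WT, ratio 1.34, 1.19 to 1.5), *Ldhd*, D-lactate dehydrogenase (48 counts in FRβ KO, 23 in WT, ratio 1.95, 1.16 to 3.36), *Pgm2l1* (192 counts in FRβ KO, 126 in WT, ratio 1.42, 1.13 to 1.80), the mitochondrial pyruvate carrier subunit *Mpc1* (541 counts in FRβ KO, 392 in WT, ratio 1.29, 1.13 to 1.47) and *Slc16a7*, encoding MCT2 (125 counts in FRβ KO, 85 in WT, ratio 1.37, 1.03 to 1.83).

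Of 9 tested genes of the other pentose phosphate and cytosolic NADPH list (11 listed), 5 had an interval above 1, against 15.0% of all tested genes, and 0 below, against 16.6%, with a median ratio of 1.13. The pair with a moderate difference was *Me1*, cytosolic malic enzyme (117 counts in FRβ KO, 77 in WT, ratio 1.42, 1.06 to 1.92), and *Rbks*, ribokinase (145 counts in FRβ KO, 104 in WT, ratio 1.30, 1.01 to 1.69). The other 4 intervals held 1.

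Of 30 tested HIF regulators and other HIF1 target genes (32 listed), 4 had an interval above 1 and 8 below, with a median ratio of 0.985, where 15.0% of all tested genes had an interval above 1 and 16.6% below. Of the 30, 2 showed a moderate difference on the higher side and 3 on the lower, where 6.32% and 7.24% of tested genes did. *Higd1a*, a mitochondrial hypoxia-induced protein, had 703 counts in FRβ KO and 1050 in WT, a ratio of 0.625 (0.567 to 0.688). *Ak4*, a mitochondrial adenylate kinase, had 750 counts in FRβ KO and 1077 in WT, a ratio of 0.650 (0.592 to 0.714), and *P4ha2*, a collagen prolyl hydroxylase, had 696 counts in FRβ KO and 919 in WT, a ratio of 0.707 (0.640 to 0.781). On the high side were *Ddit4*, an mTORC1 inhibitor (445 counts in FRβ KO, 301 in WT, ratio 1.38, 1.19 to 1.60), and the lysyl hydroxylase *Plod2* with 16 counts in FRβ KO and 4 in WT (ratio 3.74, 1.20 to 15.4).

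Scaling by total counts in place of TMM raised every ratio by the same small factor and took the interval of 6 members (*Gpi1*, *Pfkl*, *Pfkfb3*, *Pgd*, *Tkt* and *Egln3*) off the side below 1, leaving 20 of 40 below 1 and 4 above. *Egln1*, at a ratio of 0.804, then no longer showed a moderate difference, which left 6 members on the lower side. Of tested genes with at least 1000 counts, a set that holds 32 of the 40 members, 17.3% were then below 1 and 29.7% above. The shares of all tested genes were not counted with total counts. Of the 40 genes 5 lie on chromosome 7 with *Folr2*, the nearest being *Aldoa* at 24.9 Mb.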

How the data were processed

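The deposited values were raw counts of reads per gene, made for the authors by a sequencing company, with HISAT2 alignment to mm10 of paired-end reads of 150 bp. The counting program, its annotation, its strand setting and its treatment of reads matching several places are not named in the sources used, so counts of overlapping genes on opposite strands and of near-identical copies are uncertain. The meaning of FA_N, a part of the sample names, is not given. Both columns were used, 1 per genotype, each from the pooled RNA of 3 mice.

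Symbols came from GENCODE M21, which lacked 37 identifiers. TMM scaling of library sizes used edgeR 4.0.16 under R 4.3.3, with the FRβ KO size at 1.07 times that of WT. Ratios had exact (Clopper-Pearson) 95% intervals (Python 3.11.15, scipy 1.17.1), checked on simulated data. Median log2 ratios used a prior count of 2, and median ratios used none. Intervals of a ratio between a pair of genes were Wald intervals on the log scale. Values per kb used the union of all annotated exons of a gene, which can exceed the length of the transcript in use. Copies were sought among annotated transcripts with blastn 2.17.0. Alternatives were other library scalings (size factors of DESeq2 1.42.0, the upper quartile, total counts), prior counts of 0.125 and 5, filters of 1 and 50 counts, a 1.5-fold limit, a 99% interval, the point ratio alone and sums with copies.

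Every member is named. Of each pathway list, up to 6 genes with a moderate difference (over 25% above a ratio of 1, or under 0.8) were named, those whose interval bound lay farthest from 1. The members and lists were chosen with earlier results of these data known.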

Additional observations from a re-analysis of the deposited data

How the results depend on the processing

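With 1 library of pooled RNA per genotype, intervals cover counting error and not variation between mice. No paired analysis was possible because each genotype has a single library. The median log2 ratio of the 40 members was -0.10 with TMM and -0.07 with total counts, where the median of all tested genes was 0.03, and without *Gapdh* it was -0.09 and -0.06. With total counts 10 of 40 members left their TMM interval and none of those with an interval clear of 1 changed direction. Intervals at 99% left 24 members below 1, and these counts of intervals under other settings were added after seeing the data. Without the interval, 4 members were over 25% higher, *Eno2* and *Pfkfb1* being added. At 1.5-fold, 0 were higher and 1 lower, *Gapdh*. The shares of all tested genes at 99%, without the interval and at 1.5-fold were not counted. Sums with copies over 150 bp moved 2 members outside their intervals, *Gapdh* (log2 ratio -1.22) and *Rpia* (-0.09). The sum for *Rpia* held mostly counts of other genes, so its move does not describe *Rpia* itself. That for *Gapdh* also held counts of genes with only a short match, such as *Peli2*. Sums with copies over 500 bp, a limit added after seeing the data, moved 1, *Gapdh* (-1.69). Total counts left 6 members under 0.8.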
